A study of Danio rerio with 2 samples.

Results

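The HOX cluster genes of the zebrafish were examined in sorted GFP(+) cells, a population enriched in HCs (hair cells), and in GFP(−) cells of the larva. Members were all genes whose name begins with HOXA, HOXB, HOXC or HOXD, without regard to case, and 24 of the 17668 genes with values met this rule. All 24 were named through the table of Ensembl identifiers, since none (0) had a HOX name in the deposited symbols. That table holds 48 HOX identifiers, and the other 24 were not analysed here. The members covered 11 of the 13 paralogue groups, and groups 7 and 12 had none.

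The data set consists of 1 RNA-seq library of GFP(+) cells and 1 of GFP(−) cells, sorted by flow cytometry from dissociated larvae of the Ppv3b-GFP genotype (the ppv3b:GFP transgenic line of the study) at 5 dpf. The transgene drives GFP mostly in HCs, which lie in the inner ear and in the neuromasts, the sensory organs that are spread over the head, trunk and tail of the fish. The GFP(−) library represents the cells sorted as negative, of every tissue, and both libraries come from pools of whole larvae, so that no position along the body was recorded for any cell. As there was 1 library of each kind, differences between them could not be set against replicates. No p-value was computed, and all intervals cover counting error only. In such bulk libraries, fewer cells of a type and less RNA per cell cannot be told apart. By the deposited values, 17 of 17 HC markers exceeded their GFP(−) values at least 3-fold in the GFP(+) library. Markers of the superficial epidermis, which covers the larva, did so for 16 of 19 genes, against 16.9% of all genes. The summed values in GFP(+) and GFP(−) cells were 98297 and 3836.5 normalized reads for the HC markers, and 1873890 and 178880 for those of the epidermis.

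HOX genes encode homeodomain transcription factors that give cells along the body their positional identity. They lie in clusters, and within a cluster the order of the genes parallels the order of their expression domains. Genes of low paralogue number begin in the hindbrain and those of high number in the trunk, tail and fins. Paralogues of the same number in the A, B, C and D clusters often act together, and the genome duplication of teleosts gave most clusters a second copy, marked a or b at the end of a zebrafish name. The forebrain and midbrain lie in front of the HOX domain. The ear forms beside the hindbrain, and the posterior lateral line primordium carries future neuromast cells along the trunk and tail.

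Most of the HOX genes had low values, and HOXB3 had the highest value in GFP(−) cells. The deposited values are reads per gene after quantile normalization between the libraries, a step that equalizes the distribution of values between libraries, and they were bounded below at 20 normalized reads. In GFP(−) cells the members ran from 23.5 to 405 normalized reads with a median of 46, and 4 of the 24 exceeded 100. The highest value of a HOX gene in GFP(+) cells was 206.5. These values are not divided by gene length, so that levels were compared between libraries and not between genes.

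By the deposited values, 8 of the 24 HOX genes were higher in GFP(+) cells, 3 were lower and 13 were at the GFP(+) floor. Over all genes 47.5% were higher, and among the genes whose GFP(−) values lay in the range of the HOX genes 51% were. HOXD10 was the only member at least 3-fold higher, against 16.9% of all genes, and HOXB3 the only member at least 3-fold lower, against 14.6%. For these counts GFP(+) values of up to 48 were set to 48. HOXB3 alone had a GFP(−) value high enough to be 3-fold lower under this rule, the next being 129.5 for hoxc3a. The count of lower members could thus include no other gene, whereas the 14.6% is of genes of all levels. At the GFP(+) floor, values from 20 to 52.5 are ties and not measurements. It held 13 of the 24 members. The same held for 21.2% of all genes and for 30.4% of those in the HOX range of GFP(−) values. That range holds 11389 genes, and HOXB3 alone, at 405, sets its upper end. It is wider than the level of most members, whose median was 46, and shares at a matched level were not computed.

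**Figure D1:**
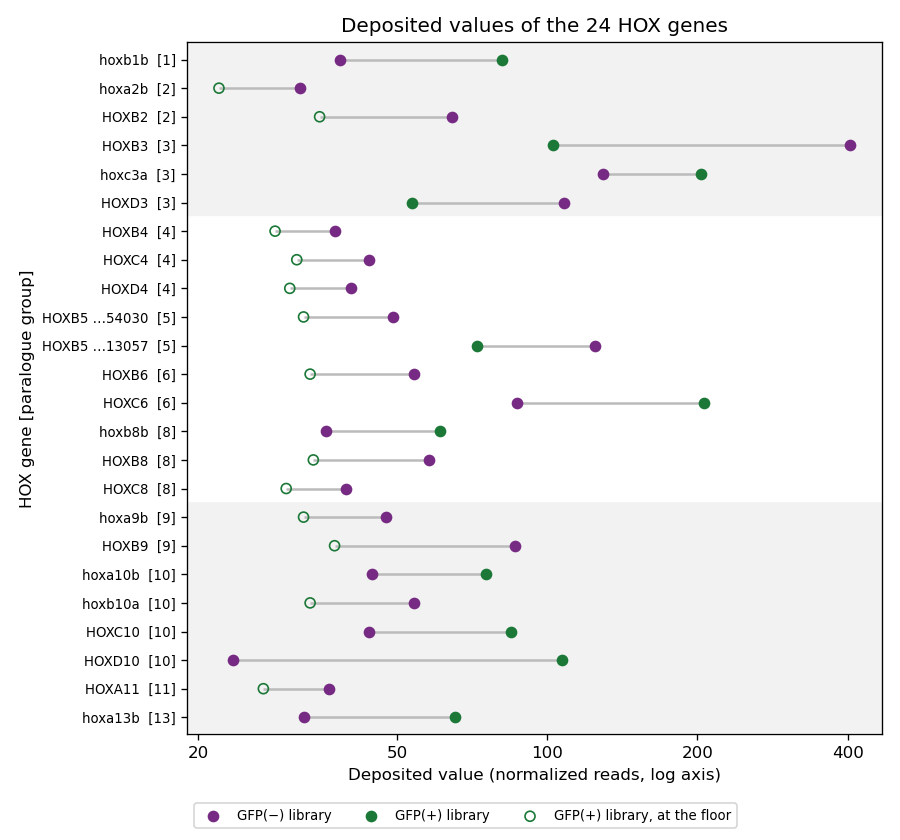
Deposited values of the 24 HOX genes in GFP(+) and GFP(−) cells, on a log axis of normalized reads, ordered by paralogue group (number in brackets; shading separates groups 1 to 3, 4 to 8 and 9 to 13). Each point is 1 library, open points are GFP(+) values at the floor, and 8 genes have the GFP(+) point on the right.

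The reads behind these values could be recovered. Each deposited value is the mean of the read numbers that hold the same rank in the 2 libraries, and ties were ranked in the order of the rows. Stepwise solution gave whole read numbers for both libraries in 10486 genes, up to a value of 426.5 and with 0 contradictions, which covered all 24 HOX genes. In this solution 40 reads corresponded to 30 normalized reads in GFP(−) cells but to 82 in GFP(+) cells. No gene had fewer than 40 reads in both libraries, the same minimum that the table's title states. The rows of the genes without a deposited symbol proved to be sorted by the ratio of these reads, with 7861 of 7861 neighbouring pairs in order. The floor was 20 reads, so that a GFP(+) value at the floor stands for 20 reads or fewer. The totals of the genes in the table were estimated at 19700000 reads in GFP(+) and 18300000 in GFP(−) cells, a ratio of 1.08. Read ratios of single genes are given without division by this ratio, unless they are said to be per total.

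The deposited ratio and the read ratio placed the same HOX genes on different sides of 1. Of the 8 members with higher deposited values in GFP(+) cells, 1 had more reads there relative to the library total, namely HOXD10. Over all genes 25.4% had more reads per total in GFP(+) cells, and in the HOX range of GFP(−) values, which is not matched in level to most members, 22.9%. Relative to the median gene, whose log2 read ratio was −1.07, all 8 remained higher. Which of these scales is closer to the RNA content of the cells was not tested. Each of the 8 had a higher read ratio than any of the other 16, so that these scales differed in where they placed a ratio of 1 and not in which HOX genes stood highest.

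**Figure D2:**
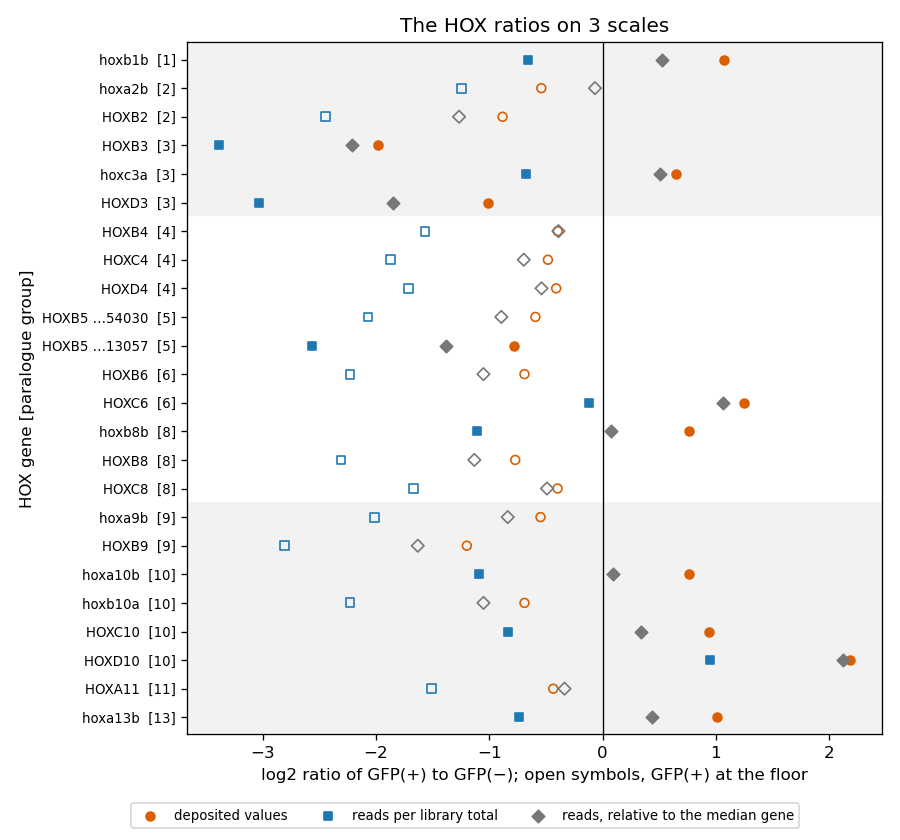
The log2 ratio of GFP(+) to GFP(−) for each HOX gene on 3 scales, namely deposited values, reads per estimated library total, and reads relative to the median gene. Open symbols have 20 GFP(+) reads or fewer, so that their read ratios are upper limits, and HOXD10 is the only gene to the right of 0 on every scale.

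Because a gene needed 40 reads in either library to be listed, the choice of listed genes fixes part of the direction. Of the 24 HOX genes, 19 reached 40 reads in GFP(−) cells only and HOXD10 (1 gene) in GFP(+) cells only, so that the direction of their read numbers was fixed by the listing. The 4 members with at least 40 reads in both libraries were HOXB3, hoxc3a, HOXC6 and HOXC10. Over all genes, 64.3% reached 40 reads in both. The counts over members given here are therefore descriptions. The listing also fixed the direction of some HC markers, among them CDH23 and ATOH1, each with 20 reads or fewer in GFP(−) cells. LHX3, an HC marker 3.48-fold higher by the deposited values, had 85 against 65 reads.

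In the anterior paralogue groups 1 to 3, whose members pattern the hindbrain and the pharyngeal arches, 2 of 6 genes had higher deposited values in GFP(+) cells. hoxb1b (ENSDARG00000054033), a group 1 gene of early hindbrain segmentation, had 81.0 normalized reads in GFP(+) and 38.5 in GFP(−) cells, a 2.10-fold difference. Its reads numbered 39 and 57, a ratio of 0.684 with a 95% exact binomial interval of 0.443 to 1.05 that included 1. Per total the interval was 0.412 to 0.972 and lay below 1, so that the direction of hoxb1b depended on the scale.

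Both group 2 genes were at the GFP(+) floor. hoxa2b (ENSDARG00000023031), a selector gene of the second pharyngeal arch, had 44 reads in GFP(−) cells and HOXB2 (ENSDARG00000000175) had 101. With at most 20 reads in GFP(+) cells, they had at least 2.20-fold and at least 5.05-fold fewer reads there.

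Group 3, which serves the posterior hindbrain and the posterior arches, held the gene with the highest GFP(−) value of all members and paralogues that differed from each other. HOXB3 (ENSDARG00000029263) had 102.5 normalized reads in the GFP(+) library against 405, a 3.95-fold difference. Its reads were 53 and 514, or 9.70-fold fewer in GFP(+) cells (95% interval 7.30 to 13.1). HOXD3 (ENSDARG00000059280) was likewise lower, with 53.5 against 108 normalized reads, and with 21 against 159 reads it was 7.57-fold lower (4.79 to 12.6). Of the 11 genes above the floor, these had the lowest read ratios.

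hoxc3a (ENSDARG00000070339) differed from HOXB3 in direction by the deposited values, and only in the size of the difference by reads. Its deposited value was 1.57-fold higher in GFP(+) cells, at 203 against 129.5 normalized reads. Its reads, however, numbered 127 in GFP(+) and 188 in GFP(−) cells, 1.48-fold fewer (1.18 to 1.87). Both hoxc3a and HOXB3 had at least 40 reads in each library, and their intervals of the read ratio did not overlap. HOXD3 was listed through its GFP(−) reads alone and is not part of this comparison.

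In the central groups 4 to 8, the genes of the hindbrain to spinal cord transition and the trunk, 7 of 10 members were at the GFP(+) floor. These included all 3 genes of group 4. HOXB4 (ENSDARG00000013533) had 55 reads in GFP(−) cells, HOXC4 (ENSDARG00000070338) had 68 and HOXD4 (ENSDARG00000059276) had 61, at least 2.75-fold, 3.40-fold and 3.05-fold more than in GFP(+) cells. None of these 3 genes exceeded 20 reads in the GFP(+) library.

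Group 5, known in mice for positioning the forelimb and for lung development, was represented by 2 genes that share the name HOXB5. ENSDARG00000013057 had 72.5 against 124.5 normalized reads, and its 33 reads against 181 made it 5.48-fold lower (3.77 to 8.21). ENSDARG00000054030 was at the floor, with 78 reads in GFP(−) cells and at least 3.90-fold fewer in GFP(+) cells. Both copies had fewer reads in GFP(+) cells, whereas on the deposited scale the second has no direction.

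The pair of group 6 genes diverged. HOXC6 (ENSDARG00000070343), a trunk gene, had the highest GFP(+) value of any HOX gene, 206.5 normalized reads, and was 2.37-fold above its GFP(−) value of 87.0. Its reads were equal within counting error, 130 in GFP(+) and 131 in GFP(−) cells, with a ratio of 0.992 (0.773 to 1.27). HOXB6 (ENSDARG00000010630) was at the floor in GFP(+) cells and had 87 reads in GFP(−) cells, so that it had at least 4.35-fold fewer. HOXC6 was the member after HOXD10 in the order of read ratios.

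Group 8 included HOXB8 (ENSDARG00000056027). In zebrafish, hoxb8a is known to act in the lateral line primordium, where it regulates chemokine receptors during migration, and RefSeq gives hoxb8 as a synonym of hoxb8a. HOXB8 was at the GFP(+) floor, with 92 reads in GFP(−) cells and at least 4.60-fold fewer in GFP(+) cells. HOXC8 (ENSDARG00000070346) was also at the floor, with 59 reads in GFP(−) cells. The remaining member, hoxb8b (ENSDARG00000054025), had 61.0 against 36.0 normalized reads, 1.69-fold higher by the deposited values. Its reads were 26 against 52, a ratio of 0.500 (0.300 to 0.815), which is the opposite direction.

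In the posterior groups 9 to 13, genes of the posterior trunk, tail and fins, 4 of 8 members had higher deposited values in GFP(+) cells and the other 4 were at the floor. Those at the floor were hoxa9b (ENSDARG00000056819, 75 reads in GFP(−) cells), HOXB9 (ENSDARG00000056023, 130 reads), hoxb10a (ENSDARG00000011579, 87 reads) and HOXA11 (ENSDARG00000007009, 53 reads). HOXB9 had at least 6.50-fold fewer reads in GFP(+) cells, the highest such limit among the members, and HOXA11 at least 2.65-fold fewer.

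Group 10, which in mice sets the rib-free lumbar region and helps to pattern the limbs, held 3 of the 8 genes with higher deposited values. HOXD10 (ENSDARG00000057859) had 107 against 23.5 normalized reads, a 4.55-fold difference. Its reads were 56 and 27, and the ratio of 2.07 had an interval of 1.29 to 3.42. It was the only HOX gene with an interval above 1 on either scale. Since 27 reads would not have put it in the table, HOXD10 was listed because of its GFP(+) reads, and a listed gene with 27 reads in GFP(−) cells had to be higher in GFP(+) cells.

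The other group 10 genes above the floor lay below HOXD10. HOXC10 (ENSDARG00000070348) had 84.5 against 44.0 normalized reads, 1.92-fold higher, but 41 against 68 reads, a ratio of 0.603 (0.399 to 0.901). hoxa10b (ENSDARG00000031337) had 75.5 against 44.5 normalized reads, 1.70-fold higher, but 35 against 69 reads, a ratio of 0.507 (0.328 to 0.773). As HOXD10 was listed through GFP(+) reads and hoxa10b through GFP(−) reads alone, the distance between these paralogues is a description only.

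hoxa13b (ENSDARG00000036254), of the group that patterns the fin fold and fin rays in zebrafish, was the only member of groups 12 and 13. It had 65.5 normalized reads in GFP(+) and 32.5 in GFP(−) cells, 2.02-fold higher. Its reads were 29 and 45, with a ratio of 0.644 (0.390 to 1.05) whose interval included 1. Per total it was 0.362 to 0.976 and did not.

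**Figure D3:**
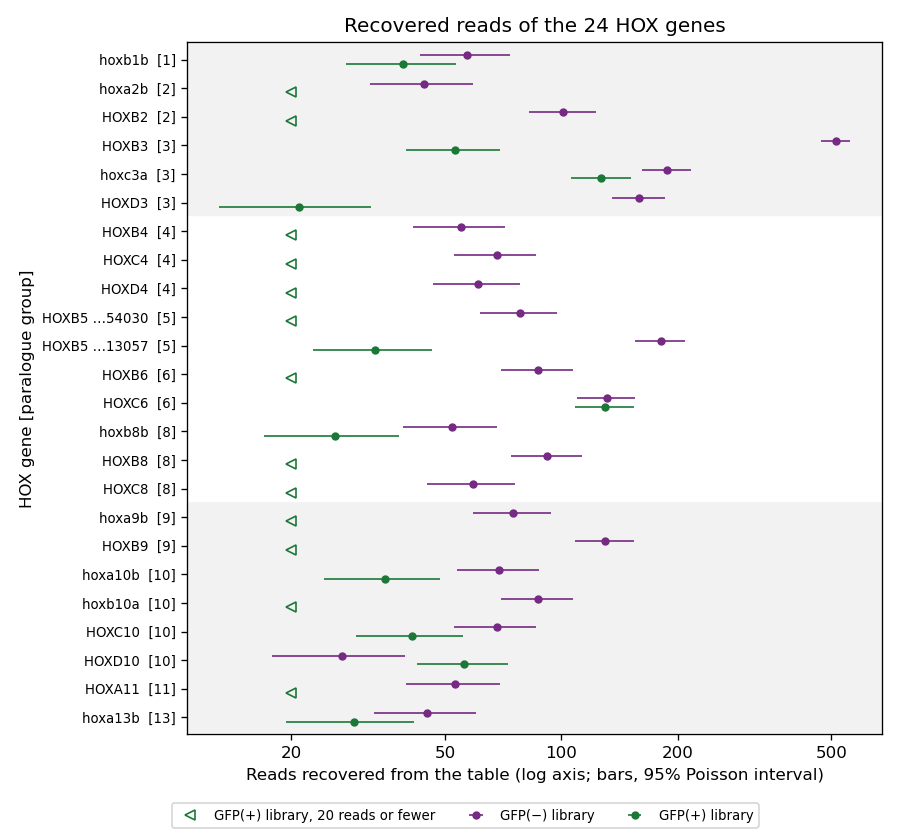
Recovered reads of each HOX gene in GFP(+) and GFP(−) cells on a log axis, with 95% Poisson intervals of the read number, ordered by paralogue group. Triangles mark the 13 genes with 20 GFP(+) reads or fewer, and HOXD10 is the only gene whose GFP(+) point lies to the right of its GFP(−) point.

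Of the 11 members above the floor in both libraries, 1 had a read ratio interval above 1, 3 had intervals that included 1 and 7 had intervals below 1. Per total, 1 lay above 1, HOXC6 was the 1 gene whose interval included it, and 9 lay below. Of the 11, only HOXB3, hoxc3a, HOXC6 and HOXC10 had at least 40 reads in both libraries. The direction of the others was fixed by the listing, so the tally of intervals is a description only. Together the 11 genes had 590 reads in GFP(+) and 1491 in GFP(−) cells. The 13 genes at the floor had 990 reads in GFP(−) cells and could have had at most 260 in GFP(+) cells. Relative to the library totals, 13 of the 24 members had at least 3-fold fewer reads in GFP(+) cells, against 39.9% of all genes, and 0 had at least 3-fold more, against 8.76%.

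The anterior, central and posterior classes were compared by counts and by sums. At least 3-fold fewer reads per total were found for 3 of 6 anterior, 7 of 10 central and 3 of 8 posterior genes. Over all genes the share was 39.9%. Only HOXB3, hoxc3a, HOXC6 and HOXC10 had at least 40 reads in both libraries. The direction of the other members was fixed by the listing, so the class counts and the sums below are descriptions only. These counts are minimums, since members at the floor were counted as 20 reads. At that number hoxa2b, HOXB4 and HOXA11 did not reach 3-fold, but their GFP(+) reads may be fewer. Summed over the members, GFP(−) cells had 3.80- to 4.43-fold more anterior HOX reads, where the limits count members at the floor as 20 reads or as 0. The same limits were 2.63 and 4.57 for the central and 2.30 and 3.44 for the posterior class. HOXB3 gave 514 of the 1063 anterior reads of GFP(−) cells, and without it the anterior limits were 2.42 and 2.94. The central range overlapped both others, and the anterior range lay above the posterior one only with HOXB3, so that no order among the classes was determined.

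The members were also grouped by cluster. In the B cluster 2 of 11 genes had higher deposited values in GFP(+) cells and 7 were at the floor, and summed reads were 4.93- to 9.50-fold more numerous in GFP(−) cells by the same limits. In the C cluster 3 of 5 genes (hoxc3a, HOXC6 and HOXC10) were higher and 2 at the floor, and summed reads were 1.52- to 1.72-fold more numerous in GFP(−) cells. The A cluster had 2 higher genes of 5 (hoxa10b and hoxa13b) and the D cluster 1 of 3 (HOXD10). Only HOXB3 in the B cluster, and hoxc3a, HOXC6 and HOXC10 in the C cluster, had at least 40 reads in both libraries. For the other members of all clusters the direction of the reads was fixed by the listing, so the sums describe the listed genes only. With 1 library per population, the difference between clusters was not tested.

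Some neighbours cannot be separated with certainty. In the RefSeq annotation of the GRCz12tu assembly, hoxc3a overlaps 5 other HOX genes (hoxc4a, hoxc5a, hoxc6a, hoxc8a and hoxc9a) and hoxb1b overlaps hoxb5b and hoxb6b. The gene with the synonym hoxb3 overlaps 3 (hoxb4a, hoxb5a and hoxb6a), and that with the synonym hoxd3 overlaps hoxd4a. How reads in shared stretches were counted, and whether strand was used, is not given in the sources used here. The reads were aligned to Zv9 and counted on Ensembl genes, so that these overlaps may not hold for the counted genes. The highest GFP(−) values of the groups 1 to 3 belong to genes named here, HOXB3, hoxc3a and HOXD3. However, hoxb1b, also named here, had 38.5 normalized reads, below the 64.5 of HOXB2, for which no overlap is annotated. An effect of overlap on the values was not tested.

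Other families of developmental transcription factors were compared for the share of genes at the GFP(+) floor. This share was 54.2% for the 24 HOX genes and 47.1% for 102 other homeobox genes. It was 29.5% for 44 forkhead genes and 19.0% for 21 SOX genes, against 21.2% of all genes. The families were not matched in level. Their summed GFP(−) values were 1716 normalized reads for the HOX, 16835.5 for the other homeobox, 23772 for the forkhead and 10588 for the SOX genes. Shares at a matched level were not computed, so that neither this share nor those below rank the families. The other homeobox set was a choice of families by gene name and not every homeobox gene. It took in all PAX names and left out PBX, MEIS and PKNOX, treated below, of which 2 of 11 genes were at the floor. Higher deposited values in GFP(+) cells were held by 33.3% of the HOX genes, 32.4% of the other homeobox genes, 34.1% of the forkhead genes and 38.1% of the SOX genes. The share over all genes was 47.5%, above that of each family. By reads per total, 1 of the 24 HOX genes was higher, as were 17 of 102 other homeobox, 7 of 44 forkhead and 4 of 21 SOX genes. Over all genes 25.4% were higher on this scale, again above each family. At least 3-fold higher values, which 1 HOX gene reached, were held by 16 other homeobox, 5 forkhead and 2 SOX genes. Over all genes 16.9% reached this, a share that the other homeobox genes came near.

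**Figure D4:**
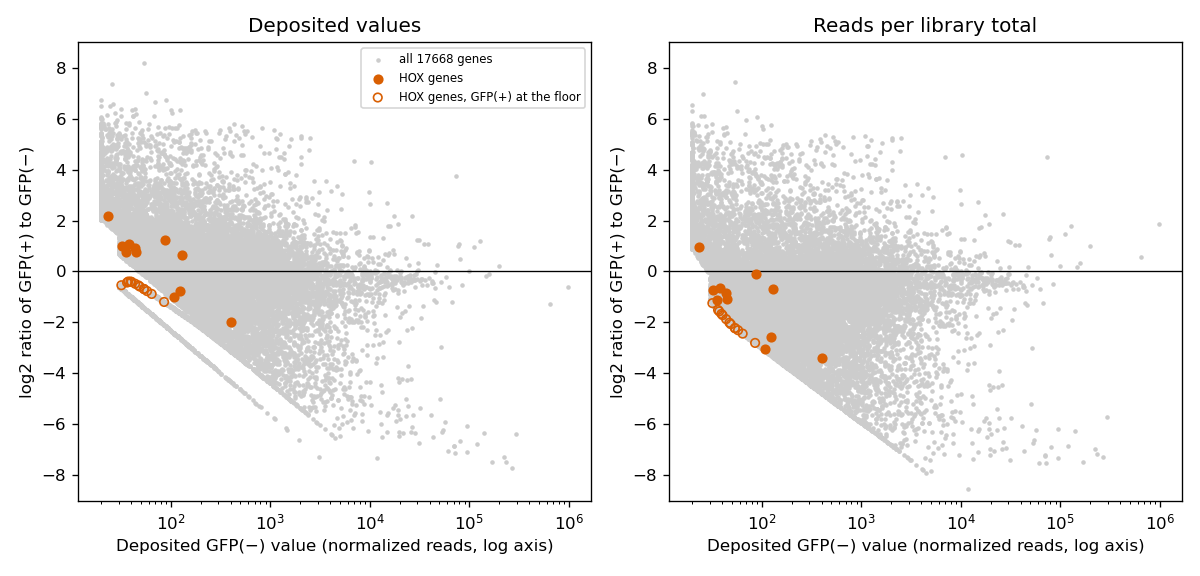
The log2 ratio of GFP(+) to GFP(−) against the deposited GFP(−) value (log axis) for all 17668 genes in grey and the 24 HOX genes in orange, by deposited values on the left and by reads per estimated library total on the right. The HOX genes lie between GFP(−) values of 23.5 and 405, and 1 HOX gene lies above 0 on the right.

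HOX proteins bind DNA together with cofactors of the TALE class (PBX, MEIS and PKNOX), and 11 such genes had values. Here and in the lists that follow, counts of lower genes include those at the GFP(+) floor. The shares over all genes to set beside these counts were 47.5% higher, 16.9% at least 3-fold higher and 14.6% at least 3-fold lower. At the floor were 21.2%, and 25.4% had more reads per total in GFP(+) cells. Of the 11 TALE genes, 9 were lower in GFP(+) cells, 2 of them at least 3-fold, and 0 were at least 3-fold higher. By reads per total, 7 had at least 3-fold fewer in GFP(+) cells, against 39.9% of all genes. meis2b had the lowest ratio, with 59.0 normalized reads in the GFP(+) library against 613.5, a 10.4-fold difference. pbx2, with 1083.5 against 739, was 1.47-fold higher. By reads per total pbx2 was the 1 gene of the 11 placed higher in GFP(+) cells, with a log2 read ratio of 0.112 against 0.107 for the library totals. Both numbers are estimates and lie close together, so that the direction of pbx2 on this scale was not determined. The genes that set up HOX domains, among them enzymes and receptors of retinoic acid signalling, numbered 13, of which 5 were at least 3-fold lower and 0 at least 3-fold higher. CYP26B1, which degrades retinoic acid, had 80.5 against 687.5 normalized reads. ALDH1A2, which makes it, was at the GFP(+) floor against 512. CYP26C1, also a degrading enzyme, was 2.03-fold higher by the deposited values, with 371.5 against 183 normalized reads, but its 266 and 256 reads had a ratio below that of the library totals.

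Polycomb and Trithorax genes keep HOX genes silent or active. Of 29 measured, 24 had lower deposited values in GFP(+) cells, 4 of them at least 3-fold, and 2 were at least 3-fold higher. The share at least 3-fold lower lay near the 14.6% of all genes. By reads per total, 15 of the 29 had at least 3-fold fewer in GFP(+) cells, against 39.9% of all genes. cbx2, a Polycomb gene, was 6.42-fold lower and kmt2a, a Trithorax methyltransferase gene, 4.02-fold lower. A JARID2 gene, which recruits Polycomb complexes, was 3.81-fold higher by the deposited values, but its reads, 259 against 143, differed by 0.86 on the log2 scale, less than 3-fold. The other JARID2 gene was 1.36-fold higher by the deposited values but had 158 against 251 reads. A KDM6B gene, a demethylase that removes the Polycomb mark, was 3.55-fold higher, with an estimated log2 read ratio of 1.87. A second gene of that name, kdm6bb, was 2.43-fold lower by the deposited values, with an estimated log2 read ratio of −1.61. Of 15 genes that flank HOX clusters, 7 were higher in GFP(+) cells, 2 of them at least 3-fold (both SNX10 genes), and 0 were at least 3-fold lower. By reads per total, 6 of these 15 and 2 of the 29 Polycomb and Trithorax genes were higher.

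Transcription factors of other positions were examined in the same way. Of 18 transcription factors of the forebrain, midbrain and eye, in front of the HOX domain, 15 were lower in GFP(+) cells, 9 of them at least 3-fold, and 10 were at the floor. foxg1b, a forebrain gene, had 115 against 1949.5 normalized reads. Of 21 transcription factors of the otic placode, 13 were higher in GFP(+) cells, 7 of them at least 3-fold, and 3 were at least 3-fold lower. By reads per total, 10 of the 21 were higher. dlx4b, which helps to establish the placode, was 8.75-fold higher by the deposited values and had 203 against 48 reads, a log2 ratio of 2.08. A DLX3 gene, of the same family, had 1616.5 against 202 normalized reads and an estimated log2 read ratio of 2.44. A SOX9 gene was 8.64-fold, PROX1 5.14-fold and SOX2 4.09-fold lower, all of them transcription factors of the developing ear.

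Markers of other cell types also differed between the libraries. Of 16 neuron markers, 14 were lower in GFP(+) cells, 9 of them at least 3-fold, 6 stood at the GFP(+) floor (SYT1 among them), and their summed value was 1280 normalized reads against 8625.5. For 13 muscle and somite markers, 8 of which were lower, the sums were 3320.5 and 2884. A single gene, myhz2, a fast muscle myosin gene, gave 1458.5 and 287 of these, and the summed reads of the list were 2595 and 3753. Of 12 markers of pronephros and fin mesenchyme, 10 were lower in GFP(+) cells, 4 of them at least 3-fold, and 6 were at the floor. Their summed values were 8106.5 and 16616.5, of which and2 gave 3609 and 10726.5. The highest ratio of the list, and the 1 at least 3-fold higher, was that of and3, with 1407.5 against 314 normalized reads. The part of neurons, mesoderm and skin in the HOX values was not tested.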

How the data were processed

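Per the study's methods, the authors aligned zebrafish RNA-seq reads to Zv9 with TopHat, counted them on Ensembl genes with HTSeq, and applied quantile normalization and a floor of 20. What was deposited is therefore a normalized signal for each gene, with no count among the values. Versions are not given in the sources used here. The methods place the floor after normalization, whereas the values followed a floor set before it.

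Ratios of GFP(+) to GFP(−) values were computed without a pseudocount, and GFP(+) values of up to 48 were set to 48 for counts of genes past 3-fold. Ties reach 52.5, but no HOX gene had a GFP(+) value between 48 and 52.5. Read numbers were recovered from ranks and row order. This step was checked on data simulated under the same rules, which cannot show how the deposited values were made. Totals above the recovered range were estimated from the read ratio that the row order implies. Intervals are 95% exact binomial or Poisson intervals and cover counting error only, since reads are not independent molecules.

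An identifier table named 14593 genes, and 3758 genes carried a deposited symbol. Clusters were taken as A to D, since human symbols do not show the duplicate. All HOX genes could be named, with at most the 3 highest and 3 lowest of each list. Named beyond these were a further copy, kdm6bb, and a gene that gave a large part of a sum, and2. The members, lists and rules were chosen with earlier results of these data known. Alternatives were pseudocounts of 20 and 100, a minimum mean of 100, removal of genes at the floor, both values raised to 48, deposited values as they stand, centring on the median gene, and either source of names. Recovered reads were added after seeing the data. Computation used scipy 1.17.1, pandas 2.3.3 and numpy 2.4.6 under Python 3.11.15, with plots by matplotlib 3.10.9.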

Additional observations from a re-analysis of the deposited data

How the results depend on the processing

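The numbers of HOX genes above and past 3-fold did not move with centring or with deposited values as they stand. In the latter setting only the number at least 3-fold lower was free to move. With Ensembl names only these numbers could not move, since no member was named by a deposited symbol. Removal of genes at the floor could not move them either, since no member at the floor was counted as higher or past 3-fold. Read-based alternatives were chosen after seeing the data, and the cause of the differences below was not tested. The 1 member at least 3-fold higher fell to 0 with both values raised to 48, with pseudocounts of 20 or 100, with a minimum mean of 100 and by reads per total. The 1 member at least 3-fold lower became 0 with a pseudocount of 100, 13 by reads per total and 3 by reads relative to the median gene. Of 8 higher members, 2 were left with a minimum mean of 100, under which 3 genes remained, and 1 by reads per total.

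The median log2 ratio of the members is not a measurement, since 13 of 24 were at the GFP(+) floor. It was 0.26 with those set to 48, −0.46 by the deposited values, −1.69 by reads per total and −0.51 relative to the median gene. The anterior median of 0.08 became −0.71, −1.84 and −0.67 in the same order, and −0.67 with a minimum mean of 100. The central median of 0.19 became −0.45, −1.79 and −0.62, and 1.25 with that minimum, which left 1 gene. The posterior median of 0.58 became −1.30 by reads per total and −0.12 relative to the median gene. The minimum mean left no posterior gene, and no HOX gene was left by deposited symbols only, so these gave no value.

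Of 270 further values for paralogue groups, clusters, families and lists, 200 stayed within 1.5 times and 70 moved further. This depended on the scale. By reads per total every further value moved (30), and relative to the median gene 14 moved and 16 did not. The 15 values under Ensembl names only could not move. No paired analysis was possible because each population has 1 library. The read numbers of the HOX genes were low, with a median of 72 per gene in GFP(−) cells and 20 or fewer in GFP(+) cells for 13 genes.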

Other observations

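At an equal number of reads in both libraries, the deposited ratio depended on the level of the gene. Among genes without a deposited symbol whose log2 read ratio was within 0.05 of 0, the median deposited log2 ratio was 1.49 for 27 genes with GFP(−) values from 32 to 64. It was 1.21 for 35 genes from 64 to 128 and 0.95 for 46 genes from 128 to 256. For 18 genes from 4096 to 16384 it was −0.10. HOXC6, with 130 and 131 reads and a GFP(−) value of 87.0, belonged to the 35 genes from 64 to 128. Its deposited log2 ratio was 1.25.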
